A study of Mus musculus with 9 samples.

Results

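Runx1, Runx2, Runx3, Cbfb, Runx1t1, Cbfa2t2 and Cbfa2t3 encode the Runx transcription factors, the subunit they share and their relatives of the ETO corepressor family. All 7 were found by symbol among the 25965 genes of the deposited table, and 5 of the 7 (all but Runx3 and Runx1t1) passed the filter on low values that 14044 genes passed. The genes were picked with the differences between deleted and control cultures already known, so those differences are given for them as a description without a test.

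The cultures were mouse neural stem cells of strain C57BL/6, derived from Smchd1 fl/fl embryos at E14.5, whose gene for the chromatin protein Smchd1 is floxed, that is, open to removal by Cre recombinase. The 4 del/del libraries (female lines 1, 2 and 3 and male line 5) came from cultures given the retrovirus MSCV-Cre-puro, selected with puromycin from 24 h on and collected 7 days after transduction. The 5 fl/fl libraries (female lines 1, 2 and 3 and male lines 5 and 7) came from untransduced cultures of the same strain and the same floxed genotype, and in lines 1, 2, 3 and 5 both cultures were parts of 1 line. Loss of Smchd1, the retrovirus and puromycin therefore cannot be told apart. The series text calls the controls del/fl and all lines female, and the sample labels were followed instead.

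Runx proteins bind DNA through the Runt domain, most tightly as heterodimers with the protein made by Cbfb, which does not touch DNA itself. Runx1 is required for the first blood stem cells and shapes pain-sensing neurons, Runx2 drives bone formation, and Runx3 acts in cytotoxic T cells and in the sensory neurons of muscle. Runx1t1, Cbfa2t2 and Cbfa2t3 encode scaffold proteins that bring histone deacetylases and NCoR-type corepressors to DNA-bound factors, and Runx1t1 (ETO) is known as the fusion partner of RUNX1 in a human acute myeloid leukaemia.

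The libraries held 24.1 M to 116.6 M reads (M for 1e+06), of which 34.8% to 53.3% fell in listed genes, and every level below is log2 of the reads per M reads (RPM) of the deposited table. Library fl/fl female 2 stood apart with the fewest reads and the highest share in genes, and 3 libraries (del/del female 1, fl/fl female 1 and fl/fl male 7) lack the prefix RNA- that the other 6 carry in their names. The targeted gene Smchd1 fell by 1.19 on the log2 scale in del/del (SE 0.148, limma adjusted p = 0.00751), and its groups did not overlap. All 16 neural stem cell markers passed the filter, among them the intermediate filament gene Nes, with levels of 7.21 to 7.71 in del/del and 7.25 to 8.45 in fl/fl libraries.

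Runx1 was the member with the largest difference: it was 2.50-fold higher in del/del than in fl/fl cultures. Its row lies on chromosome 16, 92601467 to 92826066 (mm10, minus strand), introns included. It covers the proximal start site of the gene and ends within a few bases of the distal start site. Its levels were 4.72, 4.47, 4.11 and 4.51 in del/del female 1, 2, 3 and male 5, against 3.23, 2.91, 3.13, 3.13 and 3.33 in fl/fl female 1, 2, 3, male 5 and male 7. Every del/del library lay above every fl/fl library, with 1704 to 2325 reads per del/del and 181 to 1157 reads per fl/fl library. Del/del averaged 4.45 ± 0.254 (SD, n = 4) and fl/fl 3.15 ± 0.156 (SD, n = 5), or 22.1 ± 3.75 RPM and 8.89 ± 0.938 RPM. The log2 fold change with sex in the model was 1.32 (SE 0.136), the 161st largest rise of the 14044 genes.

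The difference in Runx1 was seen in each of the 4 lines that had both cultures. Del/del exceeded fl/fl by 1.48 in female line 1, 1.56 in female line 2, 0.98 in female line 3 and 1.38 in male line 5 on the log2 scale, or 1.97- to 2.94-fold. After each library was centred on the median of the kept genes these differences ran from 0.89 to 1.79. Lines 2, 3 and 5, whose libraries carry the RNA- prefix, gave 1.31 (SE 0.142), and line 1, whose libraries lack it, gave the 1.48 above. Without fl/fl female 2 the log2 fold change was 1.26 (SE 0.132). The model of 4 group means gave 1.34 (SE 0.176) in females and 1.28 (SE 0.265) in males, who had 1 del/del library.

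**Figure D1:**
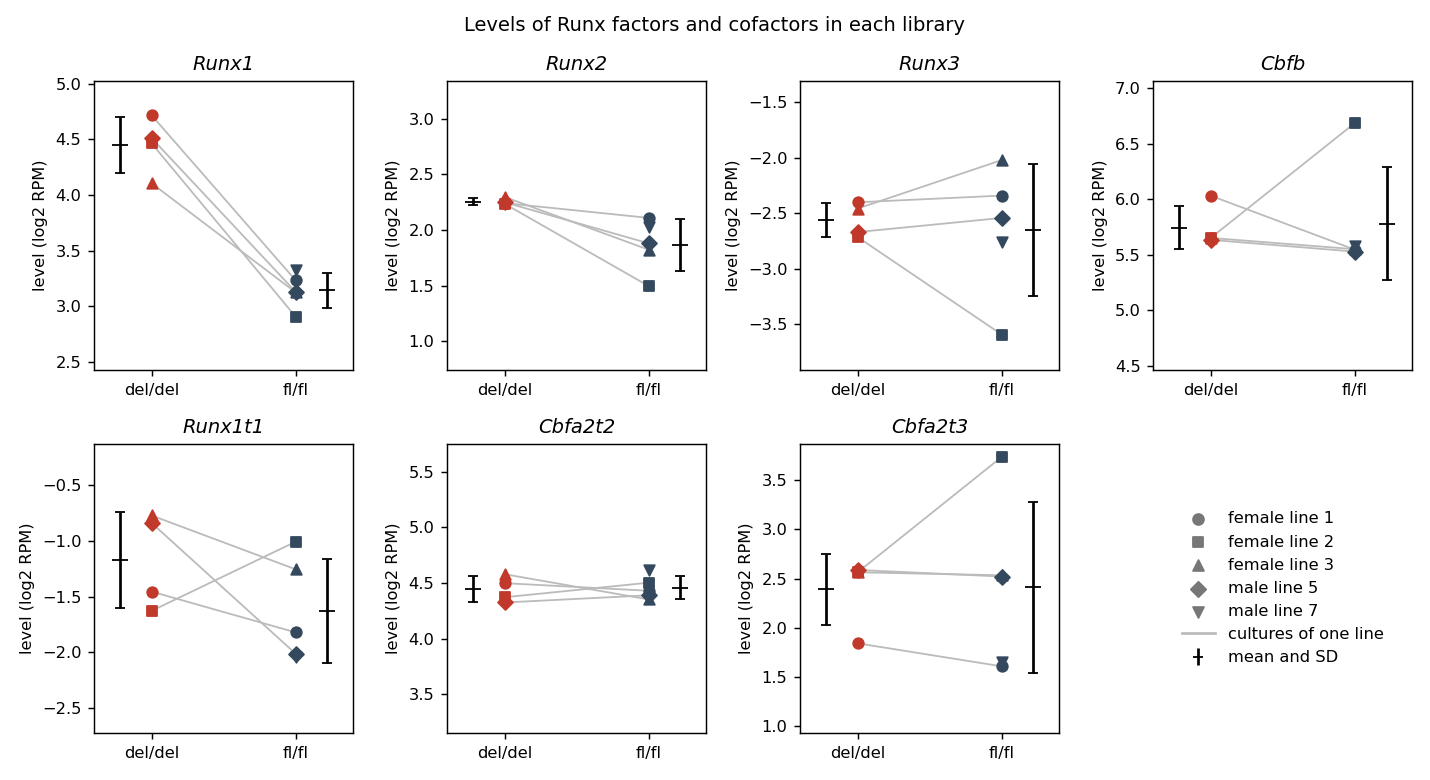
Level of each member (log2 RPM, vertical axis) in the del/del and fl/fl libraries, with a symbol for each line, grey lines joining the cultures of 1 line, and the mean with its SD beside the points (n = 4 del/del, n = 5 fl/fl). Runx1 at 4.11 to 4.72 in del/del stands above 2.91 to 3.33 in fl/fl, while Cbfb, Cbfa2t2 and Cbfa2t3 overlap between the groups.

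RefSeq (build GRCm38.p6) gives Runx1 a distal and a proximal start site, and the stretches upstream of them are shown because the row cannot assign its reads to either promoter. In the 250 bases before each start site, CpG dinucleotides are in capitals. They number 2 before the distal and 27 before the proximal start site, and the full windows of 300 bases held 45.0% and 69.0% G or C.
Runx1 distal, chr16:92826075-92826324, minus strand: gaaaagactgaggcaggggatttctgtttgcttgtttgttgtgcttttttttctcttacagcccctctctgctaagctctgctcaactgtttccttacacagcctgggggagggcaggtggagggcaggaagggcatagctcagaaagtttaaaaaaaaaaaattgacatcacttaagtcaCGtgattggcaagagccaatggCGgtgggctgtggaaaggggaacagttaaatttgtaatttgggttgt
Runx1 proximal, chr16:92697330-92697579, minus strand: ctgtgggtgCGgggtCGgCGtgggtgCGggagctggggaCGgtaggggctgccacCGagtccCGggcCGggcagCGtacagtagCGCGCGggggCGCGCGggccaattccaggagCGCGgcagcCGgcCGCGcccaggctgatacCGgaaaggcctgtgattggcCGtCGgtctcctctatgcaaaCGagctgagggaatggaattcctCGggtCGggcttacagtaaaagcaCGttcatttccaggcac

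The distal window of Runx1 shares an uninterrupted run of 18 bases with the window of Runx2 and the distal window of Runx3. The run is shown in capitals, and it holds 2 copies of TGTGGT read on the other strand (ACCACA), 1 of the forms of the hexamer that Runx proteins bind.
Runx1, chr16:92826025-92826054, minus strand: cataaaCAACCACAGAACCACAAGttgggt
Runx2, chr17:44814583-44814612, minus strand: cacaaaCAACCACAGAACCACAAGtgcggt
Runx3, chr4:135120503-135120532, plus strand: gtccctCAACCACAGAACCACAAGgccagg
The run begins at base 27 after the start site in Runx1, at base 22 in Runx2 and 136 bases before it in Runx3. The run was found in 4 of the 32851 promoter windows that RefSeq gives, those of the 3 Runx genes and that of the predicted gene Gm16225, which overlaps the Runx3 window on the opposite strand.

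The hexamers TGTGGT and TGCGGT, searched on both strands, were counted in the 9 windows that the RefSeq table holds for 6 of the 7 members (Runx1t1 was not analysed here). Runx2 had 4, the distal windows of Runx1 and Runx3 had 2 each, the distal window of Cbfa2t3 had 1, and the proximal windows of Runx1, Runx3 and Cbfa2t3 and the windows of Cbfb and Cbfa2t2 had 0. Of all windows 22.4% held at least 1 and 2.86% at least 2. A match describes the letters of the reference sequence, and binding was not measured.

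Runx2, known as the master regulator of bone-forming cells, was 1.32-fold higher in del/del, a smaller difference than that of Runx1. Its row lies on chromosome 17, 44495987 to 44814797 (minus strand), and shares 37.6 kb with that of Supt3h, a gene for a subunit of a transcriptional coactivator, so reads there can enter both rows. Levels of Runx2 were 2.24, 2.24, 2.30 and 2.25 in del/del female 1, 2, 3 and male 5, against 2.11, 1.50, 1.82, 1.88 and 2.02 in fl/fl female 1, 2, 3, male 5 and male 7. The groups did not overlap, the del/del libraries lay closer together than the fl/fl libraries, and fl/fl female 2 was the lowest library with 68 reads. Del/del averaged 2.26 ± 0.0279 (SD, n = 4) and fl/fl 1.87 ± 0.236 (SD, n = 5), and the log2 fold change was 0.40 (SE 0.142). Supt3h itself had overlapping levels of 3.41 to 3.61 in del/del and 3.23 to 3.64 in fl/fl libraries.

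Within lines Runx2 was higher in del/del by 0.13, 0.74, 0.47 and 0.37 in female lines 1, 2, 3 and male line 5, and after median centring line 1 turned to -0.05 while the other 3 stayed above 0. Without fl/fl female 2 the log2 fold change was 0.29 (SE 0.121), and the 6 prefixed libraries gave 0.53 (SE 0.148).

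Runx3 was barely read in these cultures. It lies on chromosome 4, 135120652 to 135177990 (plus strand), and had 14, 16, 18 and 16 reads in del/del female 1, 2, 3 and male 5, against 23, 2, 27, 18 and 17 reads in fl/fl female 1, 2, 3, male 5 and male 7. Its levels of -2.72 to -2.40 in del/del and -3.59 to -2.02 in fl/fl overlapped, and at this depth no difference was detectable. In female line 2 the ratio of del/del to fl/fl was 1.83, with an exact 95% interval of 0.431 to 16.5 that covers counting error only. In the other 3 lines del/del minus fl/fl ran from -0.44 to -0.06.

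Cbfb, the partner of all 3 Runx proteins, had overlapping levels in the groups. It lies on chromosome 8, 105170674 to 105217986 (plus strand). Levels were 6.03, 5.65, 5.65 and 5.63 in del/del female 1, 2, 3 and male 5, against 5.55, 6.69, 5.55, 5.53 and 5.58 in fl/fl female 1, 2, 3, male 5 and male 7. Both means rest on 1 library that stood apart, del/del female 1 at 6.03 and fl/fl female 2 at 6.69. Del/del averaged 5.74 ± 0.193 (SD, n = 4) and fl/fl 5.78 ± 0.507 (SD, n = 5), with a log2 fold change of -0.08 (SE 0.233). Without fl/fl female 2 the fl/fl mean was 5.55 ± 0.0220 (SD, n = 4) and the log2 fold change turned to 0.18 (SE 0.105). The line differences were 0.48, -1.03, 0.10 and 0.11 in female lines 1, 2, 3 and male line 5.

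Cbfa2t2, the ETO relative with the highest level, had nearly the same level in both groups. It lies on chromosome 2, 154436481 to 154539356 (plus strand), and had 4.50, 4.37, 4.58 and 4.33 in del/del female 1, 2, 3 and male 5, against 4.43, 4.50, 4.35, 4.39 and 4.62 in fl/fl female 1, 2, 3, male 5 and male 7. The log2 fold change was -0.02 (SE 0.101), and 2 of the 4 line differences were above 0.

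Cbfa2t3 differed more between libraries of a genotype than between the genotypes. It lies on chromosome 8, 122628739 to 122699109 (minus strand), wholly inside the row of the predicted gene Gm20388, which shares its reads. Levels were 1.84, 2.56, 2.56 and 2.59 in del/del female 1, 2, 3 and male 5, against 1.61, 3.74, 2.53, 2.52 and 1.65 in fl/fl female 1, 2, 3, male 5 and male 7. The 3 libraries without the RNA- prefix were the 3 lowest, at 1.84 in del/del and 1.61 and 1.65 in fl/fl, and the 6 with it were at 2.56 to 2.59 in del/del and 2.52 to 3.74 in fl/fl. The names do not say what the prefix stands for, and its part in this split was not tested. The log2 fold change was -0.06 (SE 0.405), -0.36 (SE 0.312) in the 6 libraries with the prefix and 0.34 (SE 0.272) without fl/fl female 2, and the line differences were 0.23, -1.17, 0.03 and 0.07 in female lines 1, 2, 3 and male line 5.

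Runx1t1 was low and did not pass the filter. It lies on chromosome 4, 13743436 to 13893649 (plus strand), with 27 to 58 reads per del/del and 12 to 46 reads per fl/fl library. Its levels were -1.45, -1.63, -0.77 and -0.84 in del/del female 1, 2, 3 and male 5, against -1.82, -1.01, -1.25, -2.01 and -2.04 in fl/fl female 1, 2, 3, male 5 and male 7. The groups overlapped, and the line differences of 0.37, -0.62, 0.48 and 1.18 in female lines 1, 2, 3 and male line 5 differed in sign.

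**Figure D2:**
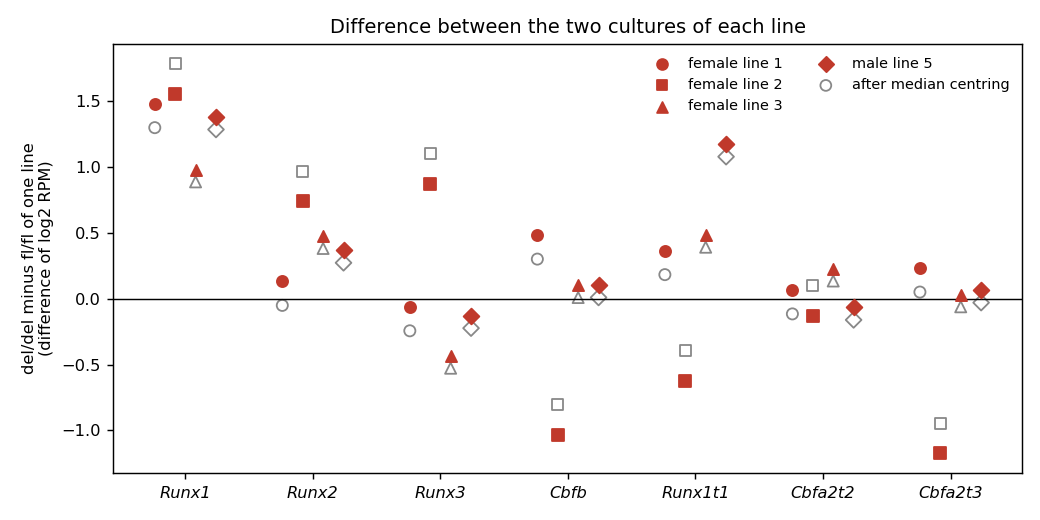
Difference of log2 RPM between the del/del and the fl/fl culture of each line (vertical axis), as deposited (filled) and after median centring of the libraries (open), for each member. The 4 values of Runx1 lie between 0.98 and 1.56 as deposited, and the values of Cbfb, Runx1t1, Cbfa2t2 and Cbfa2t3 fall on both sides of 0; the Runx3 value of line 2 rests on 2 fl/fl reads.

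Of the 5 members that passed the filter, Runx1 was among the genes called at a limma adjusted p of 0.05 over both sexes, where 1.55% of all 14044 genes were called, 1.45% higher and 0.0997% lower in del/del (3.99% in all with the line as a block, where 529 genes were higher and 32 lower, and with median centring added 226 higher and 24 lower). Runx1 and Runx2 were the members whose groups did not overlap, which held for 6.52% of all kept genes, 5.53% with del/del higher and 0.99% with del/del lower. They were also the kept members above 0 in all 4 lines, as were 17.9% of kept genes, while 4.05% were below 0 in all 4. Without del/del male 5, 2 genes rose and 0 fell over both sexes, and Runx1 was not among them. In females alone 0.0142% of genes were called and in males 0%, members not among them. Nothing is read from these counts, because the members were chosen with this contrast in view.

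Per kb of annotated exon, Cbfb had the highest level of the 7 in both genotypes, with 15.5 ± 2.20 RPM per kb in del/del and 16.7 ± 7.20 in fl/fl (SD, n = 4 and n = 5). In del/del cultures Cbfa2t2 followed at 2.52 ± 0.204, then Runx1 at 1.84 ± 0.312, then Cbfa2t3 at 0.639 ± 0.141 and Runx2 at 0.540 ± 0.0105, whose libraries overlapped, then Runx1t1 at 0.0576 and Runx3 at 0.0340. In fl/fl cultures Cbfa2t2 followed at 2.55 ± 0.192, then Cbfa2t3 at 0.742 ± 0.503 and Runx1 at 0.739 ± 0.0780, which overlapped, then Runx2 at 0.417 ± 0.0647, and last Runx1t1 at 0.0425 and Runx3 at 0.0338, which overlapped as well. This scale counts all reads of a row as exonic. Per kb of the listed span the ranks were the same except that Runx3 and Runx1t1 changed places in fl/fl, and the del/del libraries of Runx1 and Cbfa2t3 then overlapped.

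Runx1 made up 70.7% to 79.3% of the summed Runx levels per kb of exon in del/del and 59.7% to 65.0% in fl/fl libraries. Runx2 made up 19.4% to 27.5% in del/del and 33.2% to 37.2% in fl/fl, and Runx3 1.27% to 1.80% in del/del and 1.73% to 4.18% in fl/fl. The sum itself was 2.02 to 2.76 RPM per kb in del/del and 0.960 to 1.32 in fl/fl. Cbfb stood at 5.79 to 7.14 times the Runx sum in del/del and at 10.3 to 30.8 times in fl/fl. The 30.8 came from fl/fl female 2, and the other fl/fl libraries reached at most 11.5. Among the ETO relatives the shares overlapped, with Cbfa2t2 at 74.6% to 84.7% in del/del and 61.3% to 87.5% in fl/fl. These shares follow from the members' own levels and carry no test.

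**Figure D3:**
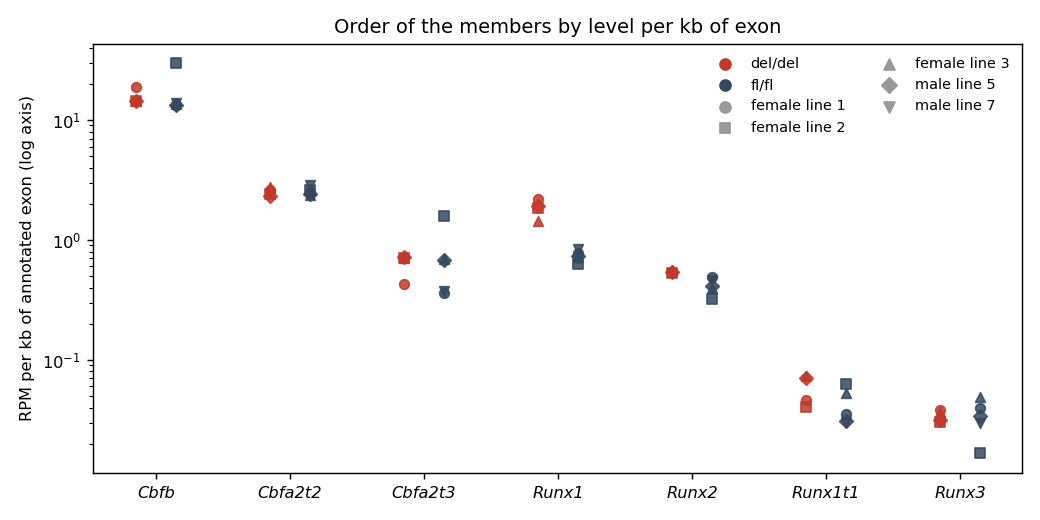
Level of each member in RPM per kb of annotated exon (vertical log axis), ordered by the fl/fl mean, with del/del (red) left of fl/fl (dark) and a symbol for each line. Cbfb lies highest, and on this scale the Runx1 libraries overlap those of Cbfa2t3 in fl/fl but not in del/del, where the means are 1.84 for Runx1 and 0.639 for Cbfa2t3.

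The choice of members did not use the difference between the sexes, which was tested in the model of 4 group means. The effect of deletion in females minus that in males was 0.06 for Runx1 (SE 0.318), 0.15 for Runx2 (SE 0.333), -0.23 for Cbfb (SE 0.532), 0.24 for Cbfa2t2 (SE 0.232) and -0.81 for Cbfa2t3 (SE 0.882), all with a limma adjusted p of 1.00. By limma 0 of 14044 genes passed (0%), 6 had an unadjusted p under 0.05, fewer than chance alone gives, and voom called 0. The model had no term for the line, though line numbers pair the cultures. No fit with the line as a block was made for this difference, so the 0% does not show that the sexes responded alike. Males had 1 del/del library, and the SE of each difference but that of Cbfa2t2 was larger than the difference itself, so a difference between the sexes was not detectable here.

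Female minus male fl/fl cultures gave -0.14 for Runx1 (SE 0.197), -0.14 for Runx2 (SE 0.206), 0.37 for Cbfb (SE 0.330), -0.08 for Cbfa2t2 (SE 0.144) and 0.54 for Cbfa2t3 (SE 0.547), each with a limma adjusted p of 0.992. Of all genes 0.0356% passed in this contrast. Without fl/fl female 2 the values of Cbfb and Cbfa2t3 were -0.01 and -0.02.

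The 5 kept genes whose levels over the 9 libraries were most like those of Runx1 were Cdsn, Wbscr17, Ptprn, Tacr1 and Pcdhb7, with Pearson's r of 0.982 to 0.990 and Spearman's rho of 0.883 to 1. The 9 libraries share genotype and line, so these values describe the libraries and carry no p. Cdsn encodes a skin adhesion protein, Ptprn a protein of secretory granules, Tacr1 the receptor of substance P and Pcdhb7 a clustered protocadherin. Because these 5 were picked for likeness to Runx1 over the same libraries, a separation of the groups was largely fixed by the choice. In all 5 the del/del libraries lay above the fl/fl libraries, as in 5.53% of all kept genes, for example Ptprn at 4.60 to 5.32 in del/del and 3.23 to 3.89 in fl/fl. Their log2 fold changes ran from 1.13 for Cdsn to 3.26 for Tacr1, beside 1.32 for Runx1. In fl/fl libraries Tacr1 stood at -3.59 to -1.97 and Pcdhb7 at -1.27 to -0.33, below the filter's level of 0. Both passed the filter only through their del/del libraries, so the 3.26 rests on low fl/fl levels.

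Genes known to work with or under Runx proteins were set beside the members, and 0 of them passed over both sexes by limma as deposited. Of 17 kept partners that activate transcription with Runx, 0 rose and 0 fell, and their median log2 fold change was -0.03, against -0.00 for all genes tested. The signal carrier of TGF-beta Smad3 had 0.32 (adjusted p = 0.233), with 5.61 to 5.83 in del/del and 5.27 to 5.48 in fl/fl libraries, which did not overlap. The myeloid factor Cebpa had 0.44 (adjusted p = 0.338), and Ets1, which binds DNA together with Runx1, had -0.44 (adjusted p = 0.486) and fell with quantile normalization (-0.38, adjusted p = 0.0239) and with voom (-0.40, adjusted p = 0.0471). These 3 were the partners with an unadjusted p under 0.05.

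Of 21 kept corepressors and DNA-binding partners of Runx and ETO proteins, 0 passed by limma (1, Tle2, at an unadjusted p under 0.05, and 0 by voom), with a median of -0.03. The Groucho-type corepressor genes Tle2 and Tle1 had 0.28 and 0.26 (adjusted p = 0.508 and 0.537), and Lmo2, a bridging protein of blood cell complexes, had 0.39 (adjusted p = 0.671). Of the 37 genes listed as reported Runx targets, 12 were kept and 0 passed by limma (0 at an unadjusted p under 0.05, and 0 by voom), with a median of -0.01. The smallest p values belonged to Timp1, an inhibitor of metalloproteases, at 0.28 (adjusted p = 0.642), the platelet integrin gene Itga2b at 0.58 (adjusted p = 0.680) and Ntrk3, the neurotrophin receptor of muscle sensory neurons, at 0.19 (adjusted p = 0.798). The other 25 targets, among them Csf2, Il3, Cd4, Mpo and the osteoblast genes Bglap and Ibsp, stayed below a log2 level of 0 in all 9 libraries.

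Blood cells and bone-forming cells are the tissues in which Runx1 and Runx2 are best known, and their markers were read beside the members. Of 15 blood and microglia markers in the table, 4 were kept and 0 passed by limma or voom, with a median of -0.03. Cd68, a lysosomal protein and the 1 with an unadjusted p under 0.05, had 0.59 (limma adjusted p = 0.164), P2ry12 -0.12 and Csf1r -0.06. The leukocyte gene Ptprc had 0 to 7 reads per library, C1qa and Trem2 had 0 reads in all 9, and 11 of the 15 stayed below a log2 level of 0 throughout. Over the 12 rows that overlap no other row the summed level was 7.67 to 10.0 RPM in del/del and 4.93 to 7.32 in fl/fl libraries. Most of this sum was the single gene Cd68, at log2 levels of 2.76 to 3.17 in del/del and 1.95 to 2.66 in fl/fl. The other kept markers, P2ry12, Csf1r and Cx3cr1, overlapped between the groups. Their rows overlap rows of other genes and can share reads with them, so they are outside this sum, while the list median includes them. The 5 rows that overlap Cx3cr1 held 104% to 107% of its reads, so its level cannot be read as that of the marker. The part of this sum in the Runx1 difference was not tested. In such bulk samples a few more cells of a type and more RNA per cell cannot be told apart.

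Mesenchymal, bone and cartilage markers had a median of 0.22 with 0 of 4 kept genes passing by limma (0 at an unadjusted p under 0.05, and 0 by voom), among them Acan at 0.34, Acta2 at 0.28 and Alpl at 0.15. Sp7, the bone factor downstream of Runx2, stayed below a log2 level of 0 in all libraries and Lum had 0 reads. The matrix gene Postn, also below the filter with 0 to 58 reads per library, was higher in every del/del library (-1.46 to -0.77) than in every fl/fl library (-4.87 to -2.33). Such a separation held for 5.53% of all kept genes, which do not include Postn, and the share among genes below the filter was not computed. Col3a1, Pdgfrb and Twist1, unkept genes of the same list, overlapped between the groups. The collagen genes Col1a1 and Col1a2 stood at 2.53 and 2.67 in del/del female 2, against -0.63 to -0.60 and -0.38 to -0.14 in the other del/del libraries and -2.01 to 0.06 and -1.24 to 0.58 in fl/fl libraries. The part of these genes in the Runx differences was not tested. Over 13 rows without overlap the summed level was 45.6 to 76.3 RPM in del/del and 31.7 to 59.7 in fl/fl, which overlap. Of 8 endothelium markers 2 were kept and 0 passed by limma or voom. Flt1 had 1.84 (limma adjusted p = 0.106) and Kdr 0.61, both with an unadjusted p under 0.05, and both overlapped between the groups. Flt1 was low, at -0.28 to 1.56 in del/del and -1.50 to 0.03 in fl/fl libraries. Tek, Tie1, Cdh5, Pecam1 and Cldn5 stayed below a log2 level of 0 in all 9 libraries, and Emcn, also not kept, overlapped between the groups. The list summed to 4.61 to 8.78 RPM in del/del and 2.94 to 5.59 in fl/fl, which overlap. Flt1 passed in 2 alternatives, the line as a block (adjusted p = 0.00995) and the 6 prefixed libraries (adjusted p = 0.0314).

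Of the neural lists, 3 of 7 astrocyte markers rose by limma (Gfap 2.07, Aqp4 1.66 and Slc1a2 0.66, list median 0.56). Of 8 neuron markers 2 rose (Nefm 1.49 and Nefl 1.25, whose rows overlap, list median -0.08). The other neuron markers kept did not pass by limma as deposited, and their groups overlapped. Rbfox3 (-0.50), Tubb3 (-0.36), Syt1 (-0.33) and Dcx (-0.18) had values below 0, while Gad1 (0.80) and Snap25 (0.01) had values above it. The astrocyte markers summed to 160 to 204 RPM in del/del and 117 to 170 in fl/fl. These sums overlap, and the part of Gfap, Aqp4 and Slc1a2 in the Runx1 difference was not tested. No astrocyte or neuron marker passed without del/del male 5, no astrocyte marker passed without del/del female 1, del/del female 2 or fl/fl female 3, and of the astrocyte markers only Gfap passed without del/del female 3. With quantile normalization Gfap and Aqp4 did not pass, Slc1a2 did not pass by voom or without fl/fl male 5, and Nefl did not pass in the 6 prefixed libraries. Gja1, a gap junction gene at 0.40 (limma adjusted p = 0.207), passed by voom, with quantile normalization, with median centring and without fl/fl female 2. Neural stem cell markers (16 kept, median -0.09) and oligodendrocyte lineage markers (4 kept, median -0.02) had 0 genes called by limma (0 at an unadjusted p under 0.05, and 0 by voom). The smallest p among the stem cell markers belonged to Notch1 (0.24), Msi1 (0.17) and Olig2 (-0.23). Among the oligodendrocyte markers Pdgfra had 0.10 and Mbp -0.06.

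**Figure D4:**
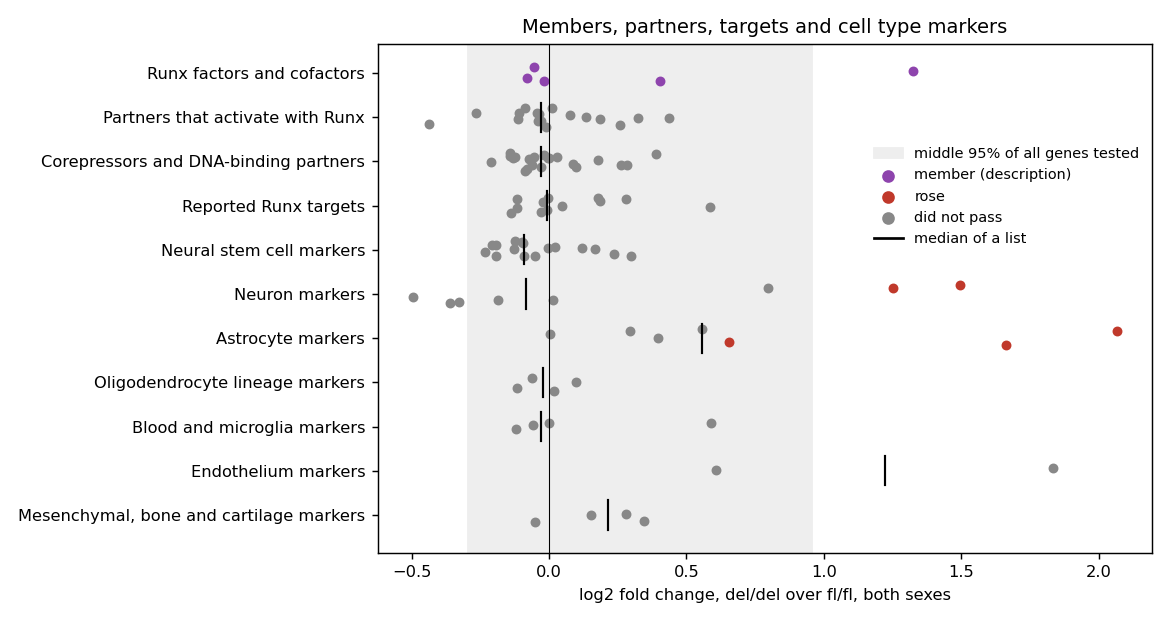
Log2 fold change of del/del over fl/fl, both sexes (horizontal axis), for the 5 members that passed the filter and for the kept genes of 10 lists, with the median of each list as a bar and the middle 95% of all genes tested (-0.30 to 0.96) in grey. Runx1 at 1.32 lies beyond the grey range, and the medians of the partners, corepressors and reported targets lie at -0.03, -0.03 and -0.01, with single genes from -0.44 (Ets1) to 0.58 (Itga2b).

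The size of the Runx1 difference varied little with the way the values were processed. Over 18 alternatives its log2 fold change ran from 1.23 to 1.42, and that of Runx2 from 0.28 to 0.53. These are differences of genes chosen for this contrast and carry no test.

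**Figure D5:**
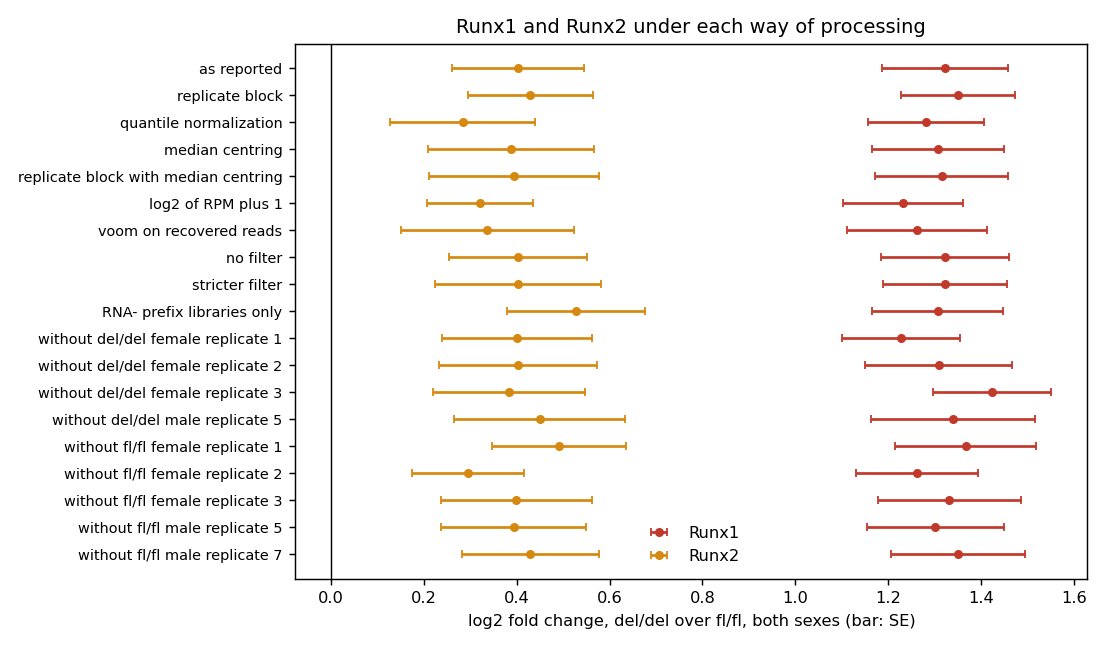
Log2 fold change of Runx1 (red) and Runx2 (orange) over both sexes (horizontal axis, bars show the SE) as reported and under each of 18 alternatives. Runx1 stays between 1.23 and 1.42 and Runx2 between 0.28 and 0.53, and both stay above 0.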

How the data were processed

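Total RNA was sequenced from 9 libraries. Build mm10, TopHat2 2.0.12, bcl2fastq and edgeR 3.8.2 were used upstream, per the submitters' processing notes, and the counter, annotation and strandedness are not given in the sources used. The authors deposited each gene's level as log2 RPM over its whole listed span. In every library at least 99.9961% of the deposited values gave whole reads (tolerance 0.05 reads, 0 reads entered as 0.9). Rows can overlap and then share reads (7479 rows, 28.8%), and without strand a gene and its antisense partner cannot be told apart.

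Groups, sexes and lines came from the sample titles. A gene was kept where 3 or more libraries reached log2 RPM 0. The log2 values were tested with limma 3.58.1 (R 4.3.3; lmFit, then eBayes with trend; two-sided), with Benjamini-Hochberg adjustment over all 14044 kept genes and a threshold of 0.05. The fit over both sexes had a term for sex (6 residual degrees of freedom), and the contrasts by sex came from 4 group means (5 degrees), where the single del/del male was taken to vary as the other groups do. Nothing says that lines came from separate litters, so p-values measure the spread between these lines and cultures.

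Line numbers pair the cultures, since the growth protocol divided each line into 2 parts. As a check, deviations from the group mean over 14044 genes (not independent replicates) correlated at 0.868, 0.582 and 0.758 within female lines 1, 2 and 3, but also at 0.728 between del/del female 2 and fl/fl female 3 and at 0.494 between del/del female 3 and fl/fl female 2.

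The alternatives were the line as a block, quantile normalization, median centring, both block and centring, log2 of RPM plus 1, voom on the recovered reads, no filter, a stricter filter (log2 of at least 2), the 6 libraries with the RNA- prefix, and each library left out. Named are all members, Smchd1, the called genes of each list or else its 3 smallest p, and the 5 genes most like Runx1 without predicted or overlapping genes. A gene that meets this rule and is missing from the text is not reported here, while counts and medians include it. Nes, Supt3h, the neuron markers that were not called and the other unkept or overlapping genes were chosen after their values were seen. The members and the 10 gene lists were chosen with earlier results of these data known. Promoter windows (250 bases before to 50 after a start site) were RefSeq's for GRCm38.p6, the build that mm10 names.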

Additional observations from a re-analysis of the deposited data

Results flagged for a closer look

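Among 14 sets of libraries (7 members, 2 genotypes), 3 held a library far from the others by Dixon's 95% criterion, where chance gives about 1 set in 20. Cbfb in del/del female 1 stood at 6.03, against 5.63 to 5.65 in the other 3 del/del libraries. Cbfb in fl/fl female 2, the library with the fewest reads, stood at 6.69, against 5.53 to 5.58 in the other 4 fl/fl libraries. Cbfa2t3 in del/del female 1, the del/del library without the RNA- prefix, stood at 1.84, against 2.56 to 2.59 in the other 3.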

How the results depend on the processing

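Over both sexes 203 genes rose and 14 fell. The line as a block gave 529 and 32, and with median centring added 226 and 24, quantile normalization gave 86 rises, the stricter filter 84 and 7, and the RNA- prefix libraries 6 falls. Leaving out each library gave 2 to 240 rises and 0 to 15 falls. The counts were 60 and 5 without del/del female 1, 48 and 4 without del/del female 2, 122 and 9 without del/del female 3, 2 and 0 without del/del male 5, 88 and 6 without fl/fl female 3 and 112 and 5 without fl/fl male 5, and 9 fell without fl/fl male 7. In females 2 rose and 0 fell (916 genes at an unadjusted p under 0.05), with the block 274 and 13. Runx1 was among the genes that rose in females with the block and with log2 of RPM plus 1, and the block changed no other member's call. Median centring gave 0 and 1, log2 of RPM plus 1 gave 38 and 1, the stricter filter gave 0 rises, and quantile normalization and voom gave 1 fall each. Leaving out a library gave 0 to 6 rises and 0 to 1 falls. In males limma called 0 genes (370 at an unadjusted p under 0.05, voom 0). Between the sexes in fl/fl 3 genes fell, 0 with the stricter filter and 0 to 4 with a library left out. The causes were not tested.

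The female minus male effect on Runx1, 0.06, turned to -0.0030 with quantile normalization and -0.010 with voom, and ran from -0.088 to 0.22 with a library left out, below 0 without del/del female 1, fl/fl female 2 (-0.035) or fl/fl male 7 (-0.042). With a library left out it ran from -0.0052 to 0.30 for Runx2 and from -0.42 to 0.15 for Cbfb, each turning without fl/fl female 2. The sex difference in fl/fl ran from -0.29 to 0.014 for Runx2, from -0.0068 to 0.56 for Cbfb, from -0.016 to 1.05 for Cbfa2t3, each turning without fl/fl female 2, and from -0.19 to 0.039 for Cbfa2t2, turning without fl/fl male 7. None of these values passed in any setting. The male effect and the difference of effects could not be fitted without del/del male 5.

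Levels were limited by depth for Runx3 and Runx1t1, with at most 58 reads per library. Reads were counted over whole spans, so intronic reads and exonic reads are not separated, and reads of Cbfa2t3 and Runx2 also enter overlapping rows. Levels are scaled by all reads of a library, and the median level of the kept genes was 4.46 in fl/fl female 2 and 4.10 to 4.38 in the other 8 libraries.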

Other observations

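The nearest kept genes on either side of each member that do not overlap it were read after their values were seen, and 0 of the 14 passed over both sexes by limma. Beside Runx1, Rcan1, an inhibitor of calcineurin that lies 135 kb away, had a log2 fold change of 0.03 (SE 0.115), and Setd4, 757 kb away on the other side, had 0.11 (SE 0.145). Beside Runx2, Clic5, a chloride intracellular channel gene 216 kb away, had -1.03 (SE 0.258, limma adjusted p = 0.102), opposite in sign to the 0.40 of Runx2, and Cdc5l, a splicing factor gene on the other side, had -0.14 (SE 0.185). In all 14 the del/del and fl/fl libraries overlapped.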
